A study of Gallus gallus with 9 samples.

Results

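The Z and W chromosomes were examined in chicken sperm through every listed region and site on Z, on W or on one of their random contigs (pieces assigned to a chromosome but not placed on it). Of 6428 listed regions, 150 were on Z and 17 on W, and of 1286 listed single cytosines, 37 were on Z and 5 on W. The assay was reduced representation bisulfite sequencing (RRBS). DNA is cut with a restriction enzyme to favour fragments rich in CpG, and bisulfite then turns unmethylated cytosines into uracil, while methylated cytosines stay as they are. The treated males (F0EHC, 4 Cobb broilers) came from eggs held at 39.5 °C and 65% humidity for 12 h daily between embryonic days 7 and 16. The control males (F0C, 5 Cobb broilers) came from eggs held at 37.8 °C and 56% humidity over the 21 days of incubation. Each library was the sperm of 1 bird, and temperature and humidity cannot be told apart. The authors listed regions and sites on these same 9 libraries, so no test of a listed item below is independent evidence of a difference between the groups. The paper reports far fewer differential regions than are listed here.

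In birds the male carries a pair of Z chromosomes and the female carries 1 Z and 1 W. A male therefore has as many copies of Z as of an autosome, and no W. Dosage of Z genes is only partly evened out between the sexes in birds, and no Z chromosome is silenced as a whole in the way that mammals silence an X. Sperm DNA is methylated over most of the genome, while CpG-rich stretches near gene starts usually stay unmethylated.

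Coordinates are those of the chicken build galGal5, counted from 1. The study attached 12 gene symbols to Z regions or sites, and all 12 lie on Z in the RefSeq annotation of a later build (GRCg7b). Of the 150 Z regions, 5 lay on 5 random contigs with 1 each, and the others lay on the assembled chromosome, from position 14959 to 81784900. All but 1 of the 17 W regions lay on a single random contig, W_NT_463468v1_random, and so did all 5 W sites. The remaining W region was at 1104733 to 1104801 of the assembled W. The 37 Z sites came from 34 CpGs and formed 19 loci when sites within 500 bp were joined. A gene ID accompanied 147 of the 150 Z regions, with 107 distinct IDs, of which 89 had a single Z region. Median length was 67.5 bp for Z regions, 80 bp for W regions and 74 bp for autosomal regions.

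At the listed sites, read depth on Z was close to that of the autosomes, and reads placed on W were about as deep. Depth is the number of methylated plus unmethylated reads at a listed cytosine, which the authors kept at 8 or more in every library. Only sites above that floor enter the ratios below, so they do not measure the copy number of Z or W. Median depth of the 37 Z sites was 57, 54, 39 and 53 reads in F0EHC replicates 1 to 4, against 41, 52, 40, 45 and 42 reads in F0C replicates 1 to 5. Divided by the median of autosomal sites in the same library, Z depth was 1.11 ± 0.139 in F0EHC (SD, n = 4) and 1.02 ± 0.0644 in F0C (SD, n = 5). On the log2 scale the ratio averaged 0.08 over the 9 libraries (exact sign-flip permutation p = 0.129, two-sided), and the groups did not separate (exact permutation p = 0.286). With the mean over sites in place of the median the log2 ratio was 0.21 (exact sign-flip permutation p = 0.0195). Depth varied far more between Z sites than between libraries, with site medians from 14 to 156 reads.

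The 5 W sites had medians of 45, 73, 56 and 49 reads in F0EHC replicates 1 to 4, against 41, 51, 56, 59 and 67 reads in F0C replicates 1 to 5. Every library thus held reads placed on the W contig, at 1 to 1.52 times the autosomal median, although males carry no W. The log2 ratio of W to autosomal depth averaged 0.30 (exact sign-flip permutation p = 0.00781), and F0EHC did not differ detectably from F0C (exact permutation p = 0.659). When the mean over sites was used, the ratio lay between 0.805 and 1.16, and its log2 value averaged 0.03 (exact sign-flip permutation p = 0.586). These 5 sites lie at 2 places, and which sequence of the male genome the reads came from was not tested. Values on the W contig are therefore given as values of reads placed there.

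**Figure D1:**
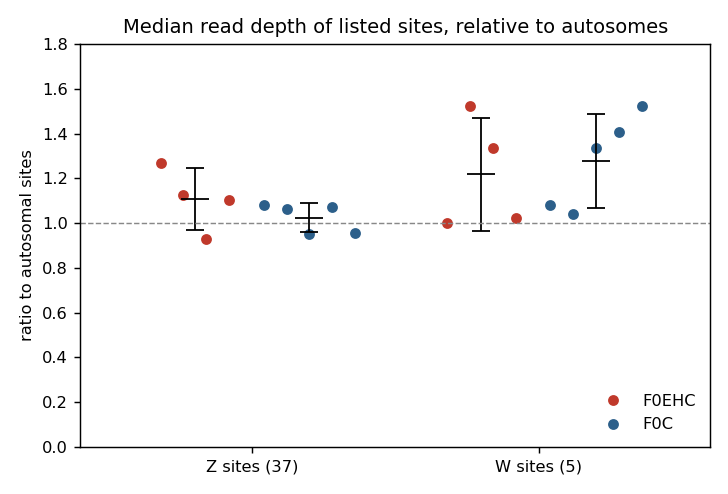
Median read depth of the listed Z and W sites divided by the median of autosomal sites in the same library (vertical axis, ratio), with 1 point per library, and the mean ± SD of each group in black. F0EHC stands left of F0C, and the dashed line marks equal depth. Z ratios lie between 0.929 and 1.27 and W ratios between 1 and 1.52.

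Z regions were less methylated than autosomal regions in every bird. The mean level over Z regions was 24.2%, 25.4%, 24.8% and 22.6% in F0EHC replicates 1 to 4, against 22.7%, 22.0%, 23.7%, 23.5% and 22.8% in F0C replicates 1 to 5. F0C replicate 5 had no value in 2 of these regions, so its mean is over 148. Autosomal regions averaged 34.4% ± 1.39 in F0EHC (SD, n = 4) and 33.8% ± 1.14 in F0C (SD, n = 5). Z minus autosomes was -10.6 ± 0.694 percentage points (SD, n = 9), with all 9 libraries between -11.5 and -9.27 (exact sign-flip permutation p = 0.00391, the smallest that 9 libraries allow). Only listed regions enter this comparison, so it describes the list and not Z as a whole. With the median over regions the gap was -31.6 points, with regions of at least 100 bp -7.04 points, and without the first 130 kb of Z -13.2 points.

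The groups lay close together on Z. Mean Z level was 24.2% ± 1.21 in F0EHC (SD, n = 4) and 22.9% ± 0.693 in F0C (SD, n = 5), a difference of 1.31 points (exact permutation p = 0.0952). F0EHC replicate 4, at 22.6%, lay below 4 of the 5 controls, and without it the difference was 1.86 points (exact permutation p = 0.0179). That was the largest with any 1 library left out, where the range was 0.926 to 1.86 points (exact permutation p = 0.0179 to 0.196). Z minus autosomes differed by 0.704 points between the groups (exact permutation p = 0.127). Regions on W averaged 38.9% ± 3.10 in F0EHC (SD, n = 4) and 34.9% ± 2.53 in F0C (SD, n = 5), a difference of 4.08 points (exact permutation p = 0.0714). Without F0EHC replicate 3 it was 5.03 points (exact permutation p = 0.0179), the largest with any 1 library left out. The range of the W difference was then 2.69 to 5.03 points (exact permutation p = 0.0179 to 0.179). W regions stood 2.57 points above autosomal ones over the 9 libraries (exact sign-flip permutation p = 0.0391). That call was lost, with p of 0.0625 or 0.0781, when any library other than F0C replicate 1 or 5 was left out. In F0C replicates 1 and 5 the W regions lay below the autosomal ones, by -0.378 and -2.96 points. The sign-flip p covers the spread between birds and not that between regions.

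**Figure D2:**
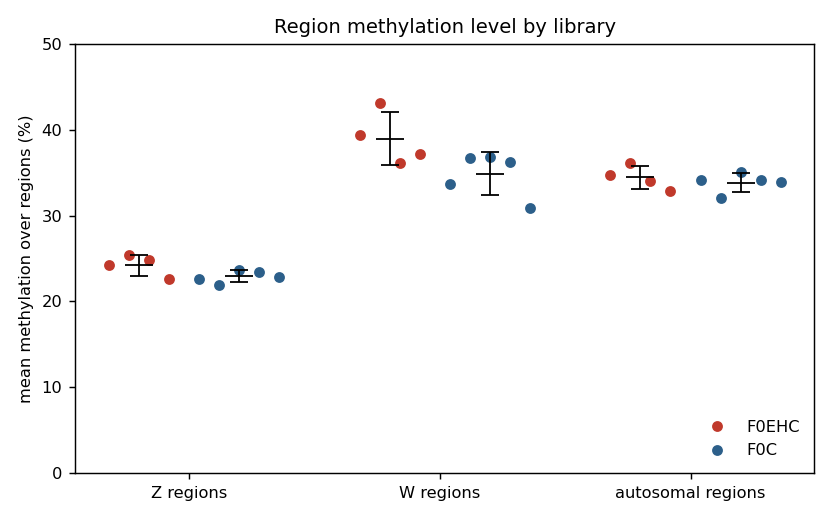
Mean methylation over listed regions of Z, W and the autosomes (vertical axis, percent), with 1 point per library, F0EHC left of F0C, and the mean ± SD of each group in black. Z lies about 10.6 points below the autosomes in both groups, and the F0EHC and F0C points of Z overlap.

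Nearly unmethylated regions made up a larger share of the Z list than of the autosomal list. Of 150 Z regions, 54 (36%) had a mean under 5% over the 9 libraries, against 1069 of 5456 autosomal regions (19.6%). In the class between 40% and 60% stood 33 Z regions (22%), against 2476 autosomal regions (45.4%). In that class Z regions averaged 52.4% in F0EHC and 50.6% in F0C, and autosomal regions 51.8% in F0EHC and 51.0% in F0C. These classes were chosen with their values in view and carry no test.

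Among the 54 Z regions under 5%, 37 were higher in F0EHC and 17 lower, or 68.5% higher, against 67.0% on the autosomes. Their mean level was 3.94%, 3.54%, 3.04% and 2.86% in F0EHC replicates 1 to 4, against 2.25%, 2.31%, 2.37%, 1.69% and 2.13% in F0C replicates 1 to 5. Every F0EHC library thus lay above every F0C library by a small amount, on Z as on the autosomes, where the range was 2.92% to 3.69% in F0EHC and 1.86% to 2.70% in F0C. Z regions between 5% and 20% averaged 9.99% in F0EHC and 10.2% in F0C, with 18 higher and 18 lower. Those over 60% averaged 65.0% in F0EHC and 64.4% in F0C, with 9 higher and 6 lower. The 12 Z regions between 20% and 40% stood at 32.5% ± 3.36 in F0EHC (SD, n = 4) and 26.5% ± 2.24 in F0C (SD, n = 5). Of these 12, 9 were higher and 3 lower, and F0EHC replicate 4 (28.7%) lay below F0C replicate 5 (29.3%). The class holds the Z regions with the largest differences, from 81277761 (SNX24, 19.5 points) and from 76908425 (18.9 points). The region from 76908425 had no value in F0C replicate 5, so the mean of that library leaves it out. The class mean without these regions was not computed. Over the autosomal regions of that class the levels were 29.9% in F0EHC and 29.7% in F0C, with 270 higher and 273 lower.

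**Figure D3:**
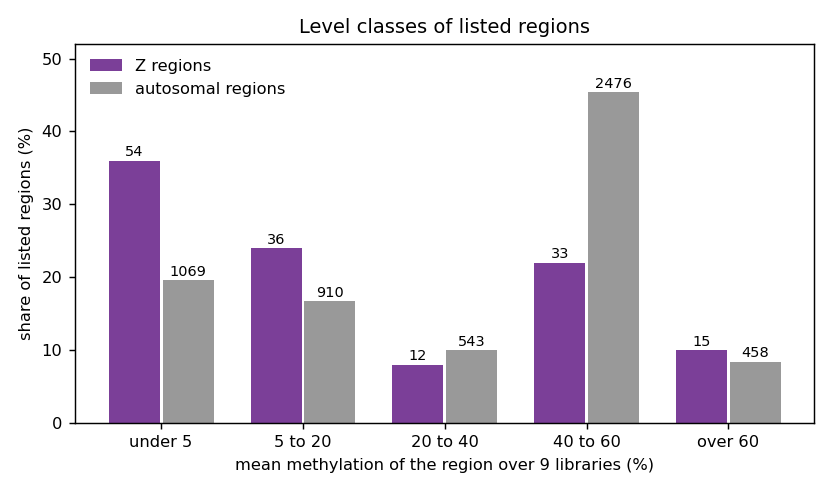
Share of listed regions (vertical axis, percent) in each class of mean methylation over the 9 libraries (horizontal axis, percent), for Z regions on the left and autosomal regions on the right of each pair, with the number of regions above each bar. The class under 5% holds 36% of Z regions and 19.6% of autosomal regions.

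Counted over all Z regions, 95 were higher in F0EHC and 55 lower (63.3% higher), against 55.7% higher on the autosomes. The median absolute difference was 3.92 points on Z and 4.50 points on the autosomes, and 8 Z regions (5.33%) differed by 10 points or more, against 6.54% of autosomal regions. Limma, fitted on all 6428 regions with Benjamini-Hochberg adjustment, called 0 regions at an adjusted p under 0.05 (background 0%), with a smallest adjusted p of 0.256 on Z as over all regions. At an unadjusted p under 0.05 it placed 32 Z regions (21.3%), where the background over all regions was 19.2%. These 32 split into 24 higher of 150 (832 of 6428 over all regions, 12.9%) and 8 lower of 150 (404 of 6428, 6.29%). Run without a trend over mean level, limma placed 14 Z regions there (9.33%), where the background of that fit was 15.4%. Groups did not overlap at 15 Z regions (10%), against a background of 7.79%. These 15 split into 9 higher of 150 (309 of 6428 over all regions, 4.81%) and 6 lower of 150 (192 of 6428, 2.99%). With any 1 F0EHC library left out the count was 23 to 29 (15.3% to 19.3%), where the share over all regions was 12.6% to 14.5%.

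The 37 Z sites were evenly split, with 19 higher and 18 lower in F0EHC, and so were the loci, with 10 higher and 9 lower. EdgeR's quasi-likelihood test on the read counts, fitted on all 1286 listed sites, called 0 of them at an adjusted p under 0.05 (background 0%). The smallest adjusted p on Z was 0.108. At an unadjusted p under 0.05 it placed 20 Z sites (54.1%), where the background was 45%. These 20 split into 13 higher of 37 (371 of 1286 over all sites, 28.8%) and 7 lower of 37 (208 of 1286, 16.2%). The count was 7 without F0EHC replicate 2 (18.9%, against 33% of all sites), 11 without F0EHC replicate 3 (29.7%, against 39.3%), 12 without F0C replicate 2 (32.4%, against 35%) and 11 without F0C replicate 4 (29.7%, against 32.7%). Without any other single library it was 16 to 20 (43.2% to 54.1%), each time above the share over all sites (31.6% to 45.4%). EdgeR's likelihood ratio test called 21 Z sites (56.8%) at an adjusted p under 0.05, 14 higher and 7 lower, where the background was 48.6%. At 7 Z sites the groups did not overlap (18.9%, background 20.6%). All 7 were higher, which was 18.9% of Z sites against 12.5% of all sites, and 0 were lower (background 8.09%). The count was 11 without F0EHC replicate 1 (29.7%, against 26% of all sites) and 12 without F0C replicate 3 (32.4%, against 25.7%). Without any other single library it was 7 to 10 (18.9% to 27%), each time below the share over all sites (25.3% to 30.1%). Median absolute difference was 13.9 points at Z sites and 20.2 points at autosomal sites. Of the 37 Z sites, 13 lay inside 6 of the Z regions, and all 13 had the sign of their region. Region and site values come from the same libraries over the same stretch, so the shared sign is not separate evidence.

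Many Z loci were weakly methylated throughout one of the groups. Of the 10 higher loci, 5 had every F0C library under 10%, and of the 9 lower loci, 7 had every F0EHC library under 5%. The cut-offs differ, so these counts cannot be set against each other. F0C reached 6.50% at the higher FOXD1 locus and 5.13% at LMNB1. The same shares over all 690 loci were not computed. At 4 lower loci all 4 F0EHC libraries were at 0%, which at their depth still allows some methylation and is given with each. Groups did not overlap at 5 Z loci (26.3%), against a background of 26.7% over all 690 loci. Each locus value is the mean methylation over its listed sites in 1 library.

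**Figure D4:**
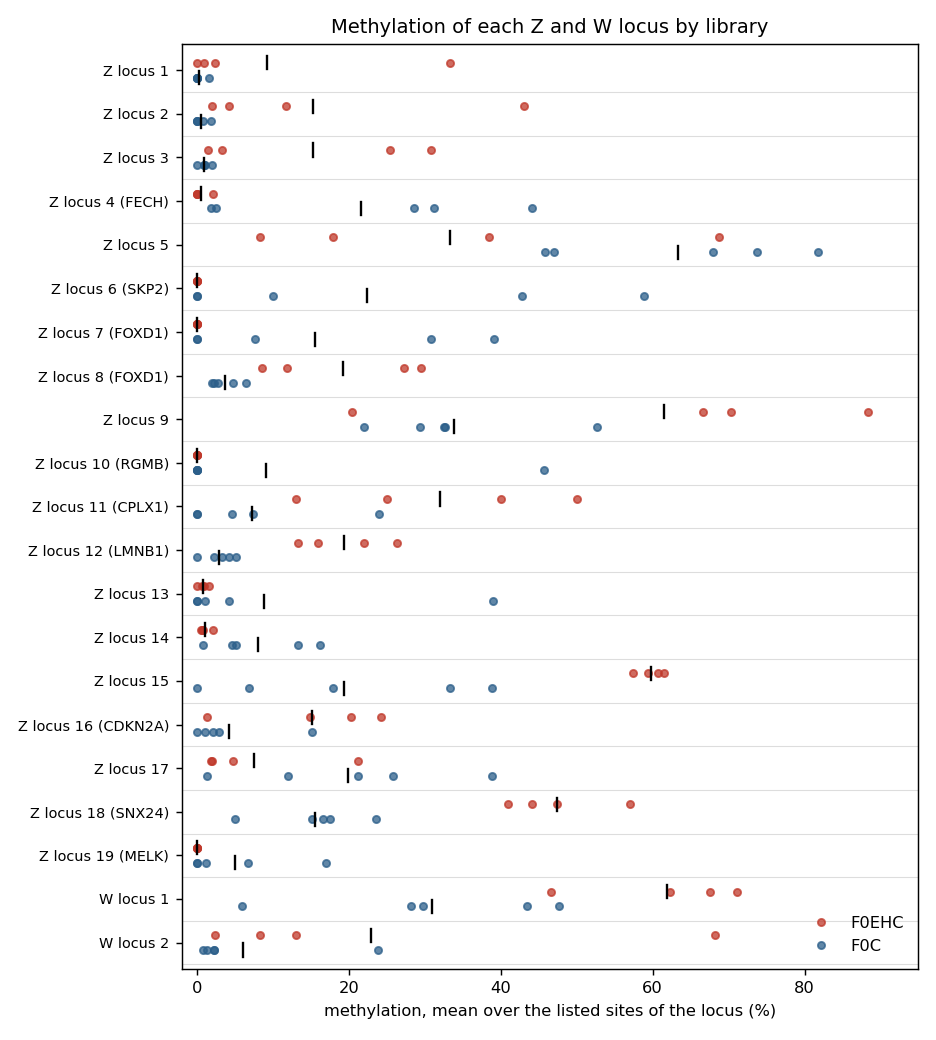
Methylation of the 19 Z loci, numbered along the chromosome, and the 2 W loci in each library (horizontal axis, percent), F0EHC above F0C in each row, with the group mean as a black bar. Groups do not overlap at Z loci 2, 8, 12, 15 and 18, and at Z locus 10 a single F0C library carries the signal. At Z locus 2 the groups are parted by single methylated reads. At Z locus 8 they overlap at every listed site except 24765048.

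The Z region with the largest difference held 2 sites of SNX24, a sorting nexin of membrane traffic. The 2 sites, at 81277796 and 81277826 and annotated by the study at the transcript end, averaged 44.1%, 57.0%, 47.4% and 40.9% in F0EHC replicates 1 to 4, against 16.5%, 4.94%, 15.1%, 17.6% and 23.5% in F0C replicates 1 to 5. The lowest F0EHC bird lay well above the highest control. In group terms the locus stood at 47.4% ± 6.94 in F0EHC (SD, n = 4) and 15.5% ± 6.74 in F0C (SD, n = 5), a difference of 31.8 points on a median of 32.5 reads (exact permutation p = 0.00794, the smallest that 4 against 5 libraries allow). The adjusted p of edgeR's quasi-likelihood test was 0.108 at both sites. With any 1 library left out the difference stayed between 28.6 and 34.0 points.

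The region around these sites (81277761 to 81277826, ENSGALG00000018874.3) was at 35.9%, 39.0%, 34.0% and 40.4% in F0EHC replicates 1 to 4, against 27.5%, 11.9%, 16.2%, 13.6% and 19.7% in F0C replicates 1 to 5. Here too no F0EHC bird met a control. Its difference of 19.5 points was the largest of any Z region with a value in every library (limma SE 4.31, adjusted p = 0.256, unadjusted p = 0.000649).

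The Z locus with the largest mean difference held the sites 78455293 and 78455311, in an intron of a transcript for which no symbol was given. F0EHC replicates 1 to 4 stood at 57.4%, 60.7%, 59.4% and 61.5%, against 38.9%, 33.3%, 0%, 6.90% and 17.9% in F0C replicates 1 to 5. The F0EHC birds were nearly alike and the controls were spread widely below them. The difference was 40.4 points (exact permutation p = 0.0159), on a median of only 15 reads. At 78455311 the 95% Wilson interval was 42.4% to 87.3% in F0EHC replicate 4 and 20.3% to 61.4% in F0C replicate 1. Such intervals cover counting error only, since reads without molecular identifiers may be copies of 1 molecule. Both sites had an adjusted p of 0.108 by edgeR's quasi-likelihood test.

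LMNB1 encodes lamin B1, a protein of the nuclear lamina. Its intronic site at 56213720 was at 15.9%, 22.0%, 13.3% and 26.3% in F0EHC replicates 1 to 4, against 4.17%, 5.13%, 0%, 2.22% and 3.28% in F0C replicates 1 to 5, on 45 to 78 reads. The groups did not overlap (difference 16.4 points, exact permutation p = 0.00794; edgeR's quasi-likelihood adjusted p = 0.108).

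Around FOXD1, a forkhead transcription factor, Z held a cluster of sites and regions. The higher locus at 24765047 to 24765090, annotated as intergenic with FOXD1 as its gene, had 4 CpGs, the most of any Z locus along with 1 other. It was at 8.59%, 27.2%, 29.4% and 11.8% in F0EHC replicates 1 to 4, against 2.80%, 2.28%, 6.50%, 1.92% and 4.70% in F0C replicates 1 to 5. In the mean over its sites all F0EHC birds lay above all controls (difference 15.6 points, exact permutation p = 0.00794). Replicates 2 and 3 of F0EHC stood well above the rest. Of its listed sites, only 24765048 parted the groups by itself. At 24765066, for example, F0EHC replicate 1 was at 8.16% and F0C replicate 3 at 14.8%. The 5 sites had adjusted p between 0.108 and 0.112 by edgeR's quasi-likelihood test, on 27 to 78 reads.

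A lower site in the same neighbourhood went the other way. At 24752172, read 9 to 23 times, all 4 F0EHC libraries were at 0%, against 7.69%, 0%, 39.1%, 30.8% and 0% in F0C replicates 1 to 5. A count of 0 there allows a level of up to 13.0% to 33.3%, depending on the library (3 reads of the total). The signal was in 3 controls, with the other two at 0% (exact permutation p = 0.286). Of the 5 regions with the ID ENSGALG00000012644.5, between 24758270 and 24765151, 4 were higher and 1 lower in F0EHC, with differences from -2.80 to 5.62 points. All 5 were weakly methylated, with means over the 9 libraries from 2.64% to 8.30%. The nearby promoter of BTF3, a subunit of the complex that binds nascent proteins, was at 5.66%, 2.52%, 4.93% and 2.17% in F0EHC replicates 1 to 4, against 2.46%, 1.01%, 0.832%, 0.673% and 0.909% in F0C replicates 1 to 5 (24743304 to 24743360). There F0EHC replicate 4 lay below F0C replicate 1, so the groups overlapped.

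CPLX1 encodes a complexin that clamps and releases synaptic vesicle fusion. Its promoter site at 52263767 was at 50%, 25%, 13.0% and 40% in F0EHC replicates 1 to 4, against 7.41%, 0%, 24%, 4.55% and 0% in F0C replicates 1 to 5, on 20 to 31 reads. F0C replicate 3 overlapped the F0EHC range (difference 24.8 points, exact permutation p = 0.0317; edgeR's quasi-likelihood adjusted p = 0.108). The listed region next to this site, 52263801 to 52263887 (ENSGALG00000015332.5), had the opposite sign. Its mean was 17.6% over the 9 libraries and its difference -3.44 points (limma SE 3.29, adjusted p = 0.396). CDKN2A encodes an inhibitor of the cell cycle. Its exonic site at 78639392 was at 1.3%, 24.2%, 14.9% and 20.2% in F0EHC replicates 1 to 4, against 15.2%, 2.90%, 1.08%, 0% and 2.08% in F0C replicates 1 to 5. Here 1 bird of each group stood with the other group (exact permutation p = 0.103). The intergenic site at 30444129 was at 70.3%, 88.4%, 66.7% and 20.5% in F0EHC replicates 1 to 4, against 29.3%, 32.6%, 32.5%, 52.6% and 22.0% in F0C replicates 1 to 5. F0EHC replicate 4 lay below every control there, and the other 3 lay above every control (exact permutation p = 0.0873).

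Lower loci on Z were carried by some of the controls. FECH encodes ferrochelatase, the last enzyme of heme synthesis. Its intronic CpG at 383363 and 383364 was at 0%, 2.08%, 0% and 0% in F0EHC replicates 1 to 4, against 44.2%, 1.79%, 2.50%, 31.2% and 28.6% in F0C replicates 1 to 5. F0C replicates 1, 4 and 5 were methylated and the other two were level with F0EHC (difference -21.1 points, exact permutation p = 0.0635). EdgeR's quasi-likelihood adjusted p was 0.108 at both strands.

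The 4 CpGs at 76758920 to 76758957, in an intron, were at 0.676%, 0.845%, 2.09% and 0.574% in F0EHC replicates 1 to 4, against 13.4%, 5.10%, 0.776%, 16.2% and 4.63% in F0C replicates 1 to 5. F0C replicate 3 was level with F0EHC and the other 4 controls were above it (exact permutation p = 0.0794). Sites there had 14 to 233 reads. The adjusted p of edgeR's quasi-likelihood test was 0.108 at 76758957 and between 0.133 and 0.149 at the others. At 74343909 to 74343930, also intronic, F0C replicate 1 stood apart. It was at 39.0%, against 0.995% to 4.17% or 0% in the other controls, and F0EHC replicates 1 to 4 were at 0.717%, 0.893%, 0% and 1.62%. Without F0C replicate 1 the difference of -8.03 points was -0.483 points.

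MELK encodes a kinase of dividing cells. The 3 CpGs at 82022816 to 82022824, annotated as intergenic with MELK as their gene, were at 0% in all 4 F0EHC libraries, against 1.19%, 17.0%, 0%, 6.69% and 0% in F0C replicates 1 to 5. At 86 to 135 reads the F0EHC zeros allow up to 2.22% to 3.49%. The difference of -4.97 points was -1.97 points without F0C replicate 2 (exact permutation p = 0.286 with all libraries). In SKP2, part of the ubiquitin ligase that degrades cell cycle inhibitors, the intronic site 10955373 was at 0% in all 4 F0EHC libraries, against 0%, 58.8%, 10%, 0% and 42.9% in F0C replicates 1 to 5. At 11 to 18 reads the F0EHC zeros allow up to 16.7% to 27.3%. Without F0C replicate 2 the difference of -22.3 points was -13.2 points. The intronic site 51332752 of RGMB, a co-receptor for bone morphogenetic proteins, was at 0% in all 4 F0EHC libraries and in 4 F0C libraries, and at 45.7% in F0C replicate 4 (95% Wilson interval 32.2% to 59.8%). The F0EHC zeros allow up to 8.33% to 18.8%. Its difference of -9.13 points is that 1 bird, and without it the difference is 0.

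Both other lower loci were more mixed. The exonic site 1462494 was at 8.33%, 17.9%, 68.8% and 38.5% in F0EHC replicates 1 to 4, against 81.8%, 47.1%, 68%, 45.8% and 73.7% in F0C replicates 1 to 5, on 11 to 39 reads (exact permutation p = 0.0794). F0EHC replicate 3 stood inside the control range. The sites 80483837 and 80483872, at a transcript end, were at 1.89%, 4.71%, 1.96% and 21.3% in F0EHC replicates 1 to 4, against 38.8%, 21.3%, 1.33%, 12.0% and 25.8% in F0C replicates 1 to 5 (exact permutation p = 0.198). The difference of -12.4 points was -7.65 points without F0C replicate 1.

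The first 115 kb of listed Z sequence, from 14959 to 129945, held 17 of the 150 Z regions, and 15 of these carried 1 gene ID, ENSGALG00000046181.1. No other gene ID had more than 5 Z regions. Of these 15, 12 were higher in F0EHC and 3 lower, with differences from -9.78 to 10.6 points and levels from 5.44% to 69.2%. The 4 regions nearest the start, at 14959 to 16653, averaged 5.13%, 33.2%, 10.6% and 7.56% in F0EHC replicates 1 to 4, against 6.02%, 6.52%, 7.40%, 5.90% and 6.23% in F0C replicates 1 to 5. F0EHC replicate 2 stood alone there and was the highest of 9 libraries at all 4 regions. The next 13 regions, from 17054 on, averaged 51.9%, 59.5%, 56.6% and 50.9% in F0EHC replicates 1 to 4, against 50.6%, 49.7%, 55.3%, 55.8% and 54.2% in F0C replicates 1 to 5. That stretch was methylated in every bird. These stretches, and those described next along Z, were chosen after their values were seen.

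Listed sites of the same stretch, all in introns, lay inside its regions, so their values are not separate evidence. F0EHC replicate 2 was the highest library at each of them, though not always alone. At 15851 and 15879 F0EHC replicate 2 was at 33.3%, and the others were at 0%, 2.38% and 0.943% in F0EHC, against 1.56% or 0% in F0C. At 16608 and 16631 the F0EHC replicates 1 to 4 were at 2.00%, 43.0%, 11.7% and 4.21%, against 0%, 0.746%, 0%, 1.79% and 0% in F0C replicates 1 to 5. Groups did not overlap in the mean of these sites (difference 14.7 points, exact permutation p = 0.00794), but without F0EHC replicate 2 the difference was 5.45 points. They overlapped at 16631 alone. At 16608 F0EHC replicates 1 and 4 and F0C replicate 4 each had 1 methylated read, of 25, 24 and 28 reads. At 68170 and 68171 replicates 2 and 3 of F0EHC were at 30.8% and 25.4% and replicates 1 and 4 at 1.45% and 3.36%, against 0% to 1.96% in F0C (difference 14.3 points, 9.08 points without F0EHC replicate 2). EdgeR's quasi-likelihood adjusted p over these 6 sites was between 0.108 and 0.236.

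Named regions of this stretch went both ways. The region 16578 to 16653 was at 3.22%, 40.3%, 13.1% and 7.30% in F0EHC replicates 1 to 4, against 1.40%, 8.15%, 7.58%, 6.87% and 3.12% in F0C replicates 1 to 5. Its difference of 10.6 points was 2.46 points without F0EHC replicate 2. The region 66223 to 66460 was at 33.5%, 68.5%, 68.5% and 55.8% in F0EHC replicates 1 to 4, against 30.2%, 34.9%, 58.3%, 57.7% and 49.3% in F0C replicates 1 to 5. Both groups held low and high birds there. Its difference of 10.5 points lay between 6.48 points (without F0EHC replicate 2) and 18.2 points (without F0EHC replicate 1), and it also moved by over 1.5 times without F0EHC replicate 3 or F0C replicate 1. The lower region 35417 to 35456 was at 58.4%, 62.1%, 35.4% and 51.0% in F0EHC replicates 1 to 4, against 60.2% to 63.0% in all 5 F0C libraries. F0EHC replicate 3 stood lowest, and without it the difference of -9.78 points was -4.35 points. The last region of the stretch, 129853 to 129945 (ENSGALG00000033770.1), was at 45.5%, 40.1%, 60.8% and 45.7% in F0EHC replicates 1 to 4, against 52.8% to 58.8% in F0C. F0EHC replicate 3 was the highest of the 9 libraries and the other F0EHC libraries were the lowest.

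Along the rest of Z the regions were unevenly placed. The first 10 Mb held 50 Z regions, 30 higher and 20 lower in F0EHC, with a median level of 42.9%. A dense stretch at 8012658 to 9588789 held 21 of these, with 11 higher and 10 lower, and averaged 32.4% ± 1.09 in F0EHC (SD, n = 4) and 31.5% ± 1.38 in F0C (SD, n = 5). It held 2 of the gene IDs with the most Z regions. The 4 regions of ENSGALG00000002548.6, at 9174212 to 9176373, were 2 higher and 2 lower, with differences from -2.89 to 4.53 points. One of the lower ones, from 9175165, was at 12.4%, 11.8%, 12.5% and 11.8% in F0EHC replicates 1 to 4, against 15.4%, 16.6%, 15.5%, 14.7% and 12.9% in F0C replicates 1 to 5, without overlap. The 3 regions of ENSGALG00000005848.7, at 8289698 to 8336545, were 1 higher and 2 lower, with differences from -5.03 to 5.96 points, and birds of both groups overlapped in all 3. Between 10563583 and 73005939 the 70 regions were mostly weakly methylated, 39 of them under 5%, and 52 were higher and 18 lower. Their mean was 17.4%, 16.8%, 16.4% and 15.4% in F0EHC replicates 1 to 4, against 13.6%, 13.8%, 15.6%, 15.6% and 14.8% in F0C replicates 1 to 5. Only F0EHC replicate 4 lay inside the control range. The longest gap between regions ran from 60243697 to 65503662, or 5.26 Mb.

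One stretch leaned the other way. Of 11 regions between 75117055 and 78184319, 10 were lower in F0EHC and 1 higher, and the 4 listed sites there, which form the single locus at 76758920, were lower. The bounds of the stretch were set after these directions were seen, and the next listed locus beyond it, at 78455293, was higher by 40.4 points. Over the 9 of these regions with a value in every library, all lower, the mean was 10.1%, 7.93%, 11.02% and 11.7% in F0EHC replicates 1 to 4, against 19.5%, 20.1%, 13.5%, 18.2% and 9.96% in F0C replicates 1 to 5, so the groups overlapped. The 1 higher region, 76908425 to 76908466 (ENSGALG00000038738.2), had the next largest difference of any Z region, 18.9 points, but no value in F0C replicate 5. It was at 29.3%, 0.690%, 77.7% and 23.5% in F0EHC replicates 1 to 4, against 0%, 1%, 24.1% and 30.4% in F0C replicates 1 to 4. It lies outside the rule for named regions and was chosen after its values were seen. In the 14 regions from 78638487 to 81784900 the split was 9 higher and 5 lower.

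Elsewhere on assembled Z, 4 more regions were among the 8 higher ones named. The region 8179379 to 8179434 (ENSGALG00000028140.2) was at 56.0%, 55.8%, 63.9% and 57.0% in F0EHC replicates 1 to 4, against 48.9%, 42.3%, 47.0%, 56.8% and 50.1% in F0C replicates 1 to 5. One control reached the F0EHC range (difference 9.13 points, exact permutation p = 0.0317, limma adjusted p = 0.256). The region 70804444 to 70804594 (ENSGALG00000002125.5) was at 58.7%, 54.4%, 53.6% and 55.9% in F0EHC replicates 1 to 4, against 41.3%, 49.0%, 48.4%, 52.9% and 46.5% in F0C replicates 1 to 5. Groups did not overlap there (difference 8.01 points, exact permutation p = 0.0159, limma adjusted p = 0.256). The region 48391631 to 48391762 (ENSGALG00000044148.1) was at 42.1%, 29.3%, 41.3% and 51.9% in F0EHC replicates 1 to 4, against 24.7%, 34.6%, 33.0%, 39.7% and 30.5% in F0C replicates 1 to 5. Its difference of 8.62 points was 5.04 points without F0EHC replicate 4. The region 81654101 to 81654129 (ENSGALG00000005423.6) was at 36.5%, 48.3%, 56.3% and 27.3% in F0EHC replicates 1 to 4, against 55.4%, 29.2%, 31.6%, 8.50% and 39.7% in F0C replicates 1 to 5. Both groups were spread widely, and the difference of 9.23 points was 3.13 points without F0C replicate 4 and 14.9 points without F0C replicate 1, and also moved by over 1.5 times without F0EHC replicate 3 or 4. All 4 regions of this last gene ID were higher in F0EHC, by 3.17 to 9.23 points.

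**Figure D5:**
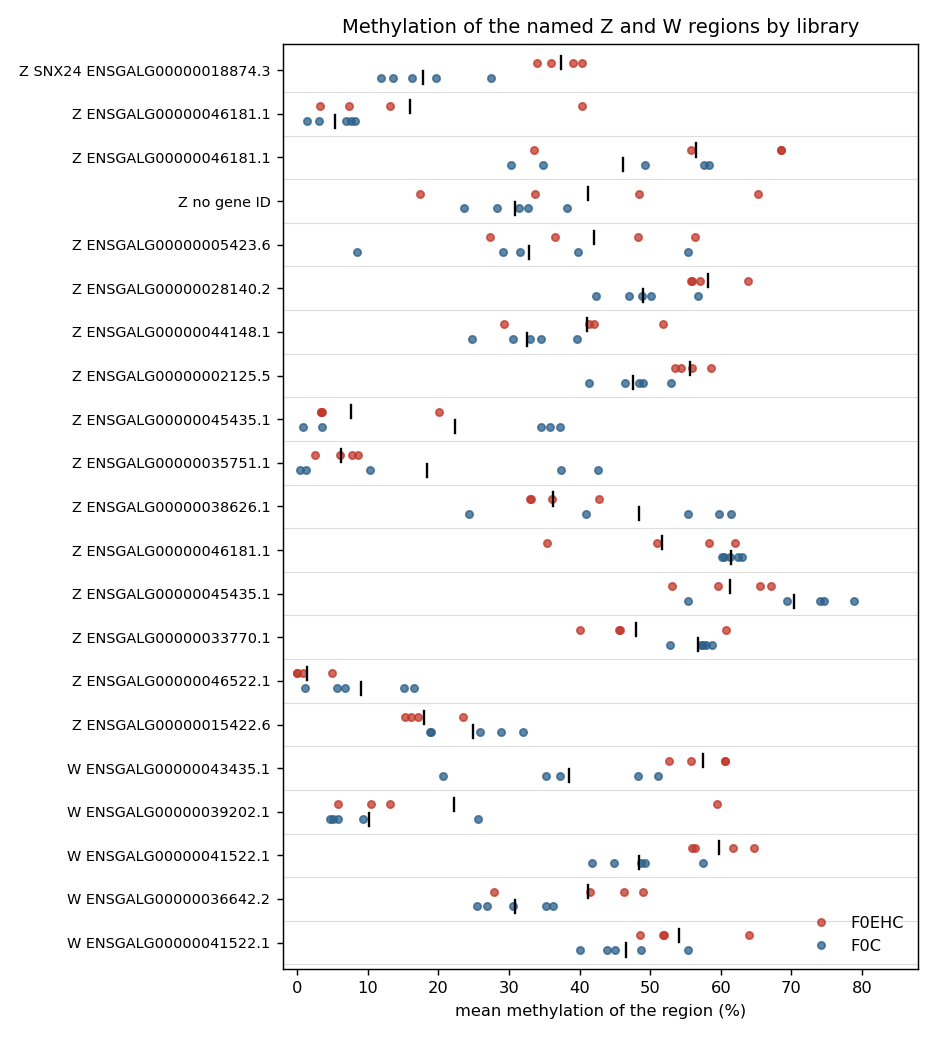
Methylation of the named Z and W regions in each library (horizontal axis, percent), labelled by chromosome and gene ID, F0EHC above F0C in each row, with the group mean as a black bar. From the top, 8 Z regions are higher in F0EHC, 8 are lower and the last 5 rows are on the W contig. F0EHC and F0C libraries overlap in all rows except the SNX24 region, that of ENSGALG00000002125.5 and that of ENSGALG00000043435.1.

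Among the lower Z regions, several of the largest differences again rested on some controls. The region 77008399 to 77008473 (ENSGALG00000045435.1) was at 3.44%, 3.40%, 3.47% and 20.03% in F0EHC replicates 1 to 4, against 35.8%, 34.5%, 3.56%, 37.2% and 0.833% in F0C replicates 1 to 5. F0C replicates 1, 2 and 4 were high and the other two low (difference -14.8 points, exact permutation p = 0.175). The neighbouring region 77014976 to 77015046 of the same gene ID was methylated in every bird, at 65.6%, 53.1%, 67.1% and 59.6% in F0EHC replicates 1 to 4, against 69.4%, 74.0%, 74.6%, 78.8% and 55.4% in F0C replicates 1 to 5. The region 426144 to 426182 (ENSGALG00000035751.1) was at 6.07%, 8.67%, 7.79% and 2.51% in F0EHC replicates 1 to 4, against 10.3%, 37.4%, 42.6%, 1.24% and 0.457% in F0C replicates 1 to 5. Its difference of -12.1 points was -6.08 points without F0C replicate 3 and also moved by over 1.5 times without F0C replicate 2. At 77101226 to 77101297, an intronic region (ENSGALG00000046522.1), F0EHC replicates 1 to 4 were at 0.760%, 0%, 4.95% and 0%, against 15.1%, 5.63%, 16.5%, 1.15% and 6.71% in F0C replicates 1 to 5. One bird of each group overlapped (difference -7.58 points, exact permutation p = 0.0476, limma adjusted p = 0.256). The region 54059239 to 54059288 (ENSGALG00000015422.6) averaged 18.0% ± 3.71 in F0EHC (SD, n = 4) and 24.9% ± 5.92 in F0C (SD, n = 5), with overlapping birds.

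The random contigs of Z had 1 region each, and 2 of them were among the named regions. On Z_NT_463616v1_random (17917 to 17980, no gene ID) the levels were 48.5%, 65.3%, 33.7% and 17.3% in F0EHC replicates 1 to 4, against 38.2%, 32.7%, 23.7%, 28.3% and 31.4% in F0C replicates 1 to 5. Its difference of 10.3 points was 2.32 points without F0EHC replicate 2 and 18.3 points without F0EHC replicate 4. On Z_NT_463808v1_random (7327 to 7390, ENSGALG00000038626.1) they were 33.0%, 36.1%, 33.1% and 42.8% in F0EHC replicates 1 to 4, against 40.8%, 61.4%, 59.8%, 24.4% and 55.4% in F0C replicates 1 to 5. The control range enclosed the F0EHC range.

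Most of the Z regions whose groups did not overlap were nearly unmethylated. That class made up 36% of Z regions and 19.6% of autosomal regions, and inside it the shares without overlap were similar. On the autosomes 442 regions did not overlap. Of the 1069 autosomal regions with a mean under 5% over the 9 libraries, 143 higher and 65 lower ones did not overlap. Of the 54 Z regions with such a mean, 7 higher and 5 lower ones did not overlap. These 12 of the 15 Z regions without overlap had differences of a few points. One was 59736205 to 59736262 (ENSGALG00000014648.5), at 3.38%, 4.04%, 3.14% and 2.35% in F0EHC replicates 1 to 4, against 0.189%, 1.6%, 0.325%, 0.379% and 0.699% in F0C replicates 1 to 5. The opposite was seen at 44620637 to 44620690 (ENSGALG00000044784.1), with 1.10%, 0.476%, 1.04% and 0.357% in F0EHC replicates 1 to 4, against 2.54%, 3.19%, 3.30%, 2.46% and 4.88% in F0C replicates 1 to 5. Both were chosen after their values were seen, and both had a limma adjusted p of 0.256. The depth behind region values is unknown, so the counting error of such low levels cannot be given.

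Apart from SNX24, the regions that the study paired with a symbol were weakly methylated and higher in F0EHC. At the promoter of TLE1, a co-repressor of transcription (39254378 to 39254445), the levels were 1.20%, 5.30%, 7.11% and 6.08% in F0EHC replicates 1 to 4, against 1.73%, 0.771%, 0.938%, 0.154% and 0% in F0C replicates 1 to 5. F0EHC replicates 2 to 4 lay above all controls and replicate 1 lay among them. The 3 regions of the ID paired with FOXB2, another forkhead factor (37557198 to 37560795), were all higher, by 2.29 to 4.91 points. At the SKP2 promoter (10979345 to 10979555) the mean was 8.27% ± 3.23 in F0EHC (SD, n = 4) and 4.94% ± 2.24 in F0C (SD, n = 5), the opposite sign to that of the SKP2 intron site above.

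On W, 12 of the 17 regions (70.6%) were higher in F0EHC, against 56.0% of all regions. All 5 sites were higher, against 59.7% of all sites, but they form only 2 loci, 1 of which holds 4 of them. Limma called 0 W regions at an adjusted p under 0.05 and placed 2 under an unadjusted p of 0.05 (background 19.2%). EdgeR's quasi-likelihood test placed 0 of the 5 sites under either threshold (background 45% unadjusted), and its likelihood ratio test placed 1 under an unadjusted p of 0.05 (background 70.1%). All values here belong to 7 gene IDs without a symbol, and the 5 sites lie in introns. The start of the W contig had the largest difference. Its site at 1324 was at 46.7%, 71.1%, 67.5% and 62.3% in F0EHC replicates 1 to 4, against 28.1%, 43.5%, 47.6%, 29.8% and 5.88% in F0C replicates 1 to 5. F0C replicate 3 just passed the lowest F0EHC bird (difference 30.9 points, exact permutation p = 0.0238, edgeR's quasi-likelihood adjusted p = 0.123).

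The region around it, 1303 to 1365 (ENSGALG00000043435.1), was at 52.7%, 60.6%, 60.6% and 55.8% in F0EHC replicates 1 to 4, against 48.2%, 37.3%, 51.1%, 35.3% and 20.6% in F0C replicates 1 to 5. It was the only W region without overlap between groups (5.88% of 17, background 7.79%), and it differed by 18.9 points (exact permutation p = 0.0238, limma adjusted p = 0.256). The region 14189 to 14275 (ENSGALG00000041522.1) was at 61.7%, 64.7%, 56.4% and 56.0% in F0EHC replicates 1 to 4, against 41.8%, 49.3%, 48.7%, 57.5% and 44.9% in F0C replicates 1 to 5. F0C replicate 4 reached the F0EHC range (difference 11.2 points, exact permutation p = 0.0317, limma adjusted p = 0.256). The region 9084 to 9163 (ENSGALG00000036642.2) averaged 41.2% ± 9.42 in F0EHC (SD, n = 4) and 30.9% ± 4.80 in F0C (SD, n = 5), and the region 16565 to 16905 (ENSGALG00000041522.1) averaged 54.1% ± 6.80 in F0EHC (SD, n = 4) and 46.6% ± 5.81 in F0C (SD, n = 5), both with overlapping birds. The difference of 7.49 points at 16565 was 4.18 points without F0EHC replicate 1.

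Farther along the W contig a single bird carried the difference. The 4 CpGs at 29606 to 29642 averaged 8.33%, 68.2%, 2.31% and 13.0% in F0EHC replicates 1 to 4, against 1.35%, 23.8%, 2.29%, 2.18% and 0.746% in F0C replicates 1 to 5. Replicate 2 stood above the rest in both groups, on 37 to 73 reads per site and library. The difference of 16.9 points was 1.79 points without F0EHC replicate 2 (exact permutation p = 0.294 with all libraries). The region 29188 to 29733 (ENSGALG00000039202.1) was at 10.4%, 59.5%, 5.78% and 13.2% in F0EHC replicates 1 to 4, against 9.38%, 25.5%, 5.84%, 5.08% and 4.72% in F0C replicates 1 to 5. Without F0EHC replicate 2 its difference of 12.1 points was -0.316 points. F0EHC replicate 2 was the highest of the 9 libraries at 7 of the 17 W regions (41.2%), at 27 of the 148 Z regions with all values (18.2%) and at 20.6% of autosomal regions.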

How the data were processed

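RRBS libraries (Zymo-Seq kit, paired-end NovaSeq) of sperm from 4 F0EHC and 5 F0C males were analysed. Per the labels and the study's methods, reads were trimmed with Trim Galore, mapped to galGal5 with Bismark in Bowtie mode, and tested with edgeR for single CpGs and metilene for regions. The authors deposited raw counts of methylated and unmethylated reads per cytosine and the percent methylation computed from them, for sites with 8 or more reads in every library. For regions the authors deposited a mean percent per library, without depth, and 31 F0C values were spreadsheet errors, treated as missing (2 of them in Z regions). Columns of the authors' own tests (p-values, q-values, fold changes) were not used. Depth was 58251 to 86529 reads per library over all listed sites. Deposited region starts count from 0 and were raised by 1. Ensembl IDs could not be matched to RefSeq, and symbols and features came from the study's annotation. No sequence is shown, since no galGal5 genome was used here.

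The site counts were refitted over all 1286 sites with edgeR 4.0.16 (quasi-likelihood, library term and group-by-methylation term) and the region percents over all 6428 regions with limma 3.58.1 (trend), with Benjamini-Hochberg adjustment and a threshold of 0.05. Exact two-sided permutation of the group labels (4 of 9 libraries) or exact sign flips served for values of whole libraries. On simulated data for all 1286 sites, edgeR called 97% of changes of 40 points and 40% of changes of 15 points. On simulated data for all 6428 regions, limma called 89% of changes of 25 points. Whether the simulated spread between birds matched that of the real libraries was not tested. Among the real sites, 78455311 was 43.6 points higher in F0EHC. Its F0C libraries ran from 0% to 38.9%, and its adjusted p by edgeR's quasi-likelihood test was 0.108. The simulated rates therefore may not hold for the real libraries, and 0 calls do not mean that large changes are absent. Named were Z loci with 3 or more CpGs, all W loci, the 8 Z regions higher and 8 lower with the largest difference among those with all values, the 5 such W regions, and the 5 gene IDs with the most Z regions (6, with a tie at 3 regions). Other loci were named after their values were seen. The members and lists were chosen with earlier results of these data known. The W region means and the Z mean without the first 130 kb were added after seeing the data. Site intervals are 95% Wilson intervals, and 0 methylated reads were taken to allow 3 reads of the total. Both cover counting error only. Alternatives were a likelihood ratio test, 20 reads, other scales and joining distances, each library left out and a replicate block.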

Additional observations from a re-analysis of the deposited data

Results flagged for a closer look

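In 15 of the 84 group values of the 42 named loci and regions, 1 library stood apart from the others of its group by a gap test on the ordered values, which chance alone triggers in about 1 of 20 groups of normally distributed values. Groups at or near 0%, where few methylated reads set the gap, may not follow that rate, which was not measured here. Nor may items that were listed or picked for their difference in these same libraries. Some loci also lie inside a named region, as the W locus from 29606 does, so the flags are not independent. The 15 flags therefore cannot be set against that rate. No explanation of these values was tested.

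F0EHC replicate 2 stood apart in 4 of them. It was at 68.2% at the W locus from 29606 (other F0EHC libraries 2.31% to 13.0%), at 59.5% in the W region from 29188 (others 5.78% to 13.2%), at 33.3% at the Z locus from 15851 (others 0% to 2.38%) and at 2.08% at FECH (others 0%). F0C replicate 2 stood apart at the same W places, at 23.8% at the locus (other F0C libraries 0.746% to 2.29%) and at 25.5% in the region (others 4.72% to 9.38%).

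F0EHC replicate 3 was at 63.9% in the Z region from 8179379 (others 55.8% to 57.0%) and at 4.95% in the Z region from 77101226 (others 0% to 0.760%). F0EHC replicate 4 was at 20.03% in the Z region from 77008399 (others 3.40% to 3.47%) and at 21.3% at the Z locus from 80483837 (others 1.89% to 4.71%).

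F0C replicate 1 was at 39.0% at the Z locus from 74343909 (other F0C libraries 0% to 4.17%), at 15.2% at CDKN2A (others 0% to 2.90%) and at 1.56% at the Z locus from 15851 (others 0%). F0C replicate 4 was at 45.7% at RGMB (others 0%), and it was low, at 52.8%, in the Z region from 129853 (others 57.2% to 58.8%).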

How the results depend on the processing

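Of 42 named loci and regions, recomputed 399 times in all, 397 values kept their sign. The exceptions were RGMB (-11.4 to 0 points with 1 library left out, 0 without F0C replicate 4) and the W region from 29188 (-0.316 to 17.6 points, the lowest without F0EHC replicate 2). All 42 were listed or picked for their difference in these same libraries. Kept signs are therefore largely built in and are not evidence of a difference. In 19 of the 42, leaving out 1 library moved the difference by over 1.5 times. EdgeR's likelihood ratio test called 21 Z sites at an adjusted p under 0.05 (56.8%, against 48.6% of all sites), where the quasi-likelihood test called 0. The likelihood ratio test also placed 1 W site under an unadjusted p of 0.05 (background 70.1%). Without a trend limma placed 14 Z regions under an unadjusted p of 0.05 (9.33%, against 15.4% of all regions). With at least 20 reads in every library, lower Z sites numbered 9 and lower Z loci 4, since fewer sites enter. With the mean over sites the log2 depth ratio was 0.21 for Z (exact sign-flip permutation p = 0.0195) and 0.0343 for W. With the median over loci the group difference of the Z ratio was -0.0295. The cause of these shifts was not tested.

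With 1 library left out, Z sites under an unadjusted p of 0.05 numbered 7 to 20 (18.9% to 54.1%). W sites numbered 0 to 2 (0% to 40%), and the share over all sites was 31.6% to 45.4%. W regions under that p numbered 2 to 4 (11.8% to 23.5%), against 15.6% to 19.5% of all regions. Z sites without overlap numbered 7 to 12 (18.9% to 32.4%), against 25.3% to 30.1% of all sites. Z regions without overlap numbered 19 to 29 (12.7% to 19.3%), against 10.7% to 14.5% of all regions. The group difference was 0.926 to 1.86 points for the Z mean and 2.69 to 5.03 points for the W mean. W minus autosomes was 2.02 to 3.26 points. The group difference of the log2 depth ratio was 0.0372 to 0.186 for Z and -0.188 to 0.014 for W, with 0.014 without F0EHC replicate 1 and 0.00409 without F0EHC replicate 4.

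Replicate numbers did not pair the samples (correlation of deviations -0.0561 to 0.0704). With the replicate block 20 Z regions (13.3%, against 11.3% of all regions) and 1 W site (20% of 5, against 40.4% of all sites) had an unadjusted p under 0.05, and no other count of calls moved by over 1.5 times. Depth is unknown for regions, and at sites with under 20 reads a single read moves a value by over 5 points.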
